A study of Gallus gallus with 18 samples.

Results

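The data compared here are the gene read counts of induced HD3 cells (HD3dif) and of proliferating HD3 cells (HD3pr), taken as every library that the labels place in these groups: 2 HD3dif and 2 HD3pr libraries of 18 samples in the series. HD3 is a chicken erythroblast line transformed by the avian erythroblastosis virus, kept as 1 clone (A6 of line LSCC), so each group stands for 1 transformed line and not for erythroblasts of an animal. HD3dif cells had been held for 14 h in growth medium with 20 µM iso-H-7, a protein kinase inhibitor, and 10 mM HEPES, at 42 °C in air. HD3pr cells had been grown in the same medium at 37 °C with added CO2 and without either agent. Agent, buffer, temperature and gas therefore changed together and cannot be told apart. Total RNA was depleted of rRNA, so unspliced and non-polyadenylated transcripts could be counted as well. The study states that its 2 replicates per group were independent biological replicates. The 2 libraries of DT40, a chicken lymphoid line, shared in the scaling of libraries, the estimate of spread and the filter on low counts. They also served to match gene names and to form 1 alternative filter.

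Erythroid differentiation is the last part of red cell formation. The cell leaves the cycle, makes hemoglobin from globin chains and heme, and turns down most of its other genes. In birds the mature red cell keeps its nucleus, whose chromatin is largely silent. Lines such as HD3 are used because the virus holds them at the erythroblast stage until they are induced. The comparison asks how far the set of transcripts changed over this step, in which genes, at which levels and in which direction.

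The deposited tables held 17108 Ensembl genes, named by identifier only. The HD3dif libraries had 20100063 and 24054973 reads on genes, against 30576844 and 29784807 in the HD3pr libraries. Reads on genes made up 34.4 ± 1.93% of all counted reads in HD3dif and 45.3 ± 1.22% in HD3pr (mean ± SD, n = 2 each). Reads that fell on no gene feature made up 46.3 ± 0.50% in HD3dif and 33.7 ± 0.52% in HD3pr. The groups did not overlap in either share, and the part of this difference in the gene results below was not tested. Read counts have counting error of their own, and shares and folds of genes with few reads are the least certain.

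More genes passed the test downward than upward. Counts were fitted with the quasi-likelihood test of edgeR after scaling by TMM (trimmed mean of M values, which assumes that most genes do not change), and a gene was called when its log2 fold change lay beyond 0.6 with a Benjamini-Hochberg adjusted p below 1e-07, the limits that the study names. Of 10898 genes tested, 1305 were higher in HD3dif (12%) and 2003 were lower (18.4%), together 30.4%. The called genes that were higher had a median log2 fold change of 1.46, and those that were lower had a median of −1.11. Over all tested genes the median was 0.03, with 0.83 at the 75th percentile and −0.60 at the 25th. The upper tail was longer, with 3.01 at the 95th percentile and −1.57 at the 5th. The median standard error of a log2 fold change was 0.087. In bulk RNA, fewer cells of a type and less RNA per cell cannot be told apart, and counts scaled to each other give no absolute amount of RNA.

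**Figure D1:**
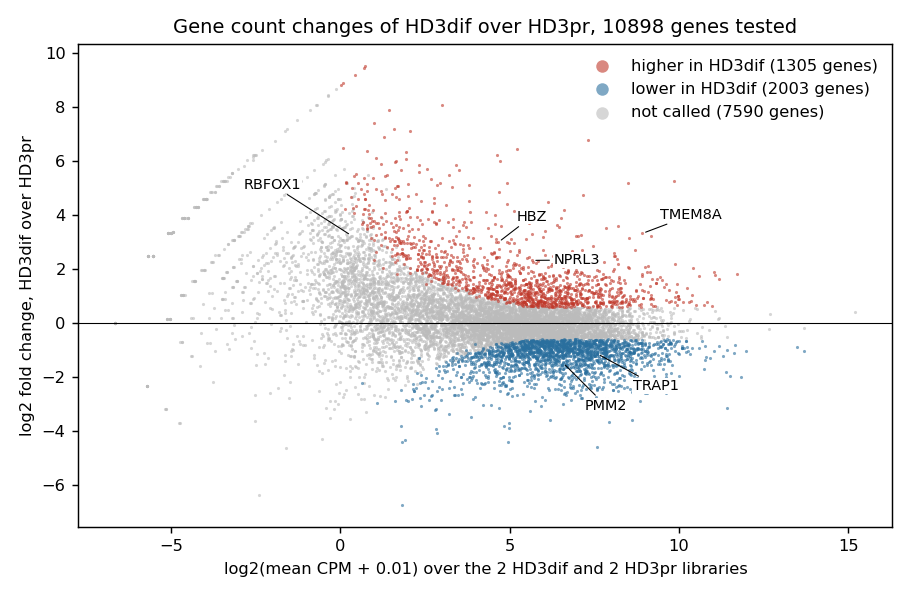
Log2 fold change of HD3dif over HD3pr (y axis) against log2 of the mean CPM plus 0.01 (x axis), 1 point per tested gene. CPM are counts per 1e+06 gene reads after TMM scaling, averaged over the 2 HD3dif and 2 HD3pr libraries. Red points are the 1305 genes called higher in HD3dif, blue points the 2003 genes called lower and grey points the 7590 not called; red points reach farther from 0 than blue ones and lie more often at low levels.

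The limits on a call were strict, and most genes outside them passed a looser one. Of the 7590 genes not called, 5336 had an adjusted p below 0.05 in edgeR's test. With an adjusted p of 0.05 and no limit on the fold, 4353 genes were higher in HD3dif and 4291 lower, so that the excess of lower genes was not seen at this limit. With an adjusted p of 0.05 and a log2 fold change beyond 1, 2193 were higher and 1459 lower. Both HD3dif libraries lay above both HD3pr libraries in 4963 genes (45.5%) and below both in 4753 genes (43.6%). Together these made up 89.2% of the tested genes, and all 3308 called genes were among them. Leaving out 1 of the 4 HD3 libraries brought the genes called higher down to between 664 and 765 and the genes called lower to between 1120 and 1490, with no call turned round.

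The direction of the called genes depended on the size of the change. Between log2 fold changes of 0.6 and 1, 345 genes were higher in HD3dif and 785 lower. Between 1 and 2, 544 were higher and 1000 lower. Between 2 and 3 the numbers were about even, 207 higher and 192 lower. Between 3 and 4, 108 were higher and 20 lower, and beyond 4, a 16-fold change, 101 were higher and 6 lower. With TMM, small changes were thus mostly decreases, and 94.4% of the changes beyond 16-fold were increases. The balance of the small changes depended on the scaling of the libraries, which is described below. Between 1 and 2, higher genes exceeded lower genes with upper quartile factors (728 and 617), with the total of gene reads (833 and 608) and with that total without the 100 genes with most reads (827 and 584). Between 0.6 and 1 the share of higher genes was 24.4% to 47.1% over the 6 scalings.

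The increases beyond 16-fold were mostly of genes with few reads before induction. Their median level was 6.01 CPM in HD3dif and 0.181 CPM in HD3pr, and 88 of the 101 were below 1 CPM in HD3pr. In 49 of them the HD3pr libraries held fewer than 10 reads together. In 5 of them the HD3pr libraries held none, where the fitted fold depends on the prior count of the fit and sets no bound. Among genes with a mean of at least 10 CPM, 19 rose and 2 fell beyond 16-fold. Leaving out 1 HD3 library left 25 to 56 increases and 3 to 4 decreases beyond 16-fold.

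The gene tables pair no identifier with a name. Names were given only to genes of the study's table of its chromosome 14 region, 27 of 35, whose listed levels matched the read counts of 1 identifier in all 3 cell types. The match was to replicate 1 of each cell type, although the table is described as a mean of replicates, and no other source was at hand to check the names. The other 8 are not analysed here, and neither are the lists of erythroid regulators, heme enzymes and markers of other cell types, which need names. The alpha-type globin HBZ was the only globin that could be checked. Of the 27 named genes, 10 were called higher in HD3dif (37.0%, against 12% of all tested genes), 4 lower (14.8%, against 18.4%) and 13 were not called. Their median log2 fold change was 0.72, against 0.03 over all genes. The groups did not overlap in any of the 27, with HD3dif higher in 20 and lower in 7. They also did not overlap in 89.2% of all tested genes, with HD3dif higher in 45.5% and lower in 43.6%. The study chose this region for its globin genes, so the named genes are no sample of the genome. Roles given for them below are known mainly from mammals. CPM values are not corrected for gene length and cannot be compared between genes.

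The globin gene and its neighbours TMEM8A and NPRL3 were among the named genes with the largest increases. TMEM8A, a membrane protein gene beside the globin cluster, had 855 and 898 CPM in HD3dif, against 87.7 and 88.2 CPM in HD3pr. Its log2 fold change was 3.32 ± 0.048 (SE, edgeR adjusted p = 1.46e-19). HBZ, which encodes an embryonic alpha-type chain of hemoglobin, had 45.6 and 44.6 CPM in HD3dif and 6.43 and 4.88 CPM in HD3pr, a log2 fold change of 2.99 ± 0.12 (adjusted p = 2.33e-13). NPRL3, part of the GATOR1 complex that restrains mTORC1, had 86.7 and 82.4 CPM in HD3dif and 16.9 CPM in each HD3pr library, a log2 fold change of 2.32 ± 0.085. In mammals its introns hold the main enhancer of the alpha-globin genes. In all of these genes the replicates lay close together compared with the distance between the groups.

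The other 7 genes called higher have varied roles. MPG, a DNA glycosylase of base excision repair, had 44.1 and 38.0 CPM in HD3dif and 11.0 and 9.83 CPM in HD3pr (log2 fold change 1.97). ABAT, which breaks down the transmitter GABA, had 165 and 174 CPM in HD3dif and 43.0 and 44.2 CPM in HD3pr (1.96). The gene listed as Ep300, a histone acetyltransferase, had 244 and 243 CPM in HD3dif and 113 CPM in each HD3pr library (1.11). USP7, a deubiquitinating enzyme, had 22.6 and 27.4 CPM in HD3dif and 11.2 and 10.1 CPM in HD3pr (1.24). CARHSp1, an RNA-binding protein gene, had 4.19 and 3.57 CPM in HD3dif and 1.14 and 0.697 CPM in HD3pr (2.06). LUC7L, a factor of the U1 snRNP, and KIAA0556 were called higher by 0.75 and 0.72 on the log2 scale. The calls of USP7, CARHSp1, LUC7L and KIAA0556 were lost whenever 1 HD3 library was left out, which left 6 of the 10 genes called higher. Their adjusted p in edgeR was then between 2.83e-07 and 1.07e-05, and all kept their direction. The call of CARHSp1 was also lost without replicate 2 of DT40 (adjusted p = 1.06e-07) and with only the 4 HD3 libraries in the fit (2.87e-06). LUC7L and KIAA0556 were not called with all reads of the library as the scale (0.60 and 0.57). With no filter on low counts, none of these 4 genes was called (adjusted p of 1.28e-06 to 9.64e-06 in edgeR). The same held with a replicate block (adjusted p of 1.02e-06 to 3.03e-06 in edgeR). With the filterByExpr filter of edgeR, only LUC7L of these 4 kept its call.

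Of the named genes, 4 were called lower. PMM2, which makes mannose 1-phosphate for protein glycosylation, had 50.5 and 50.7 CPM in HD3dif and 141 and 137 CPM in HD3pr, a log2 fold change of −1.46 ± 0.053 (edgeR adjusted p = 1.67e-14). NUDT16L1, an RNA-binding protein gene, had 164 and 165 CPM in HD3dif and 451 and 424 CPM in HD3pr (−1.41). TRAP1, a mitochondrial chaperone of the HSP90 family, had 122 and 118 CPM in HD3dif and 263 CPM in each HD3pr library (−1.13). GTF3C1, the largest subunit of the RNA polymerase III factor TFIIIC, had 156 and 150 CPM in HD3dif and 245 and 247 CPM in HD3pr (−0.69). The call of GTF3C1 was lost without replicate 2 of HD3dif (adjusted p = 4.02e-07) or of HD3pr (1.37e-07). It was also lost under 3 of the 5 other scalings described below, where its log2 fold change was between −0.46 and −0.42.

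Among the 13 named genes not called, 10 had a positive and 3 a negative log2 fold change. RBFOX1, a splicing regulator of neurons and muscle, had 2.42 and 2.11 CPM in HD3dif (53 and 55 reads) and 0.322 and 0.147 CPM in HD3pr (9 and 4 reads). Its log2 fold change of 3.23 ± 0.44 was among the largest of the named genes, but its adjusted p of 2.37e-06 in edgeR did not reach the limit. With all reads of the library as the scale it was called (3.08 ± 0.45, adjusted p = 1.67e-09 in edgeR). That refit also had its own estimate of spread, and the lower adjusted p came with a smaller fold and no smaller SE. HMOX2, the constitutive heme oxygenase, had 30.9 and 29.0 CPM in HD3dif and 16.8 and 17.4 CPM in HD3pr (0.81, adjusted p = 2.08e-07 in edgeR). HMOX2 was called higher with gene totals as the scale (1.05, adjusted p = 4.44e-09 in edgeR). It was also called with DESeq2 size factors, upper quartile factors and the total without the 100 top genes. Further calls came with only the 4 HD3 libraries in the fit and with DESeq2 itself (adjusted p = 9.34e-11 in DESeq2). HMOX2 was called as well with replicate 1 or replicate 2 of DT40 left out (0.82 each). It was not called with all reads of the library as the scale (0.65), with no filter, with filterByExpr, with a replicate block or with 1 HD3 library left out. AXIN, a scaffold of the complex that degrades beta-catenin, had a log2 fold change of 0.81, and RHBDF1, an inactive rhomboid protein gene, of 0.63. AXIN was called higher with gene totals as the scale (1.06, adjusted p = 6.80e-08 in edgeR), but not under the other scalings. It was also called with DESeq2 (0.86, adjusted p = 2.34e-08 in DESeq2). With replicate 1 of DT40 left out AXIN was called too (0.83), but not with 1 HD3 library left out. ARHGDIG had 6.75 and 7.52 CPM in HD3dif and 12.5 and 11.5 CPM in HD3pr (−0.74, adjusted p = 0.000124 in edgeR), and was called lower with all reads of the library as the scale (−0.90, adjusted p = 7.25e-08 in edgeR). Gsg1l, SNRNP25, NAA60, METTL22, MGRN1, C7orf26 and CLCN1 lay between 1.80 (Gsg1l, with 1.19 and 0.998 CPM in HD3dif and 0.322 and 0.293 CPM in HD3pr) and −0.32 (CLCN1). The smallest change was that of C16orf72, with 56.9 and 54.4 CPM in HD3dif and 52.6 and 53.7 CPM in HD3pr (0.07, adjusted p = 0.390 in edgeR). Its direction turned under scaling to all reads of the library.

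**Figure D2:**
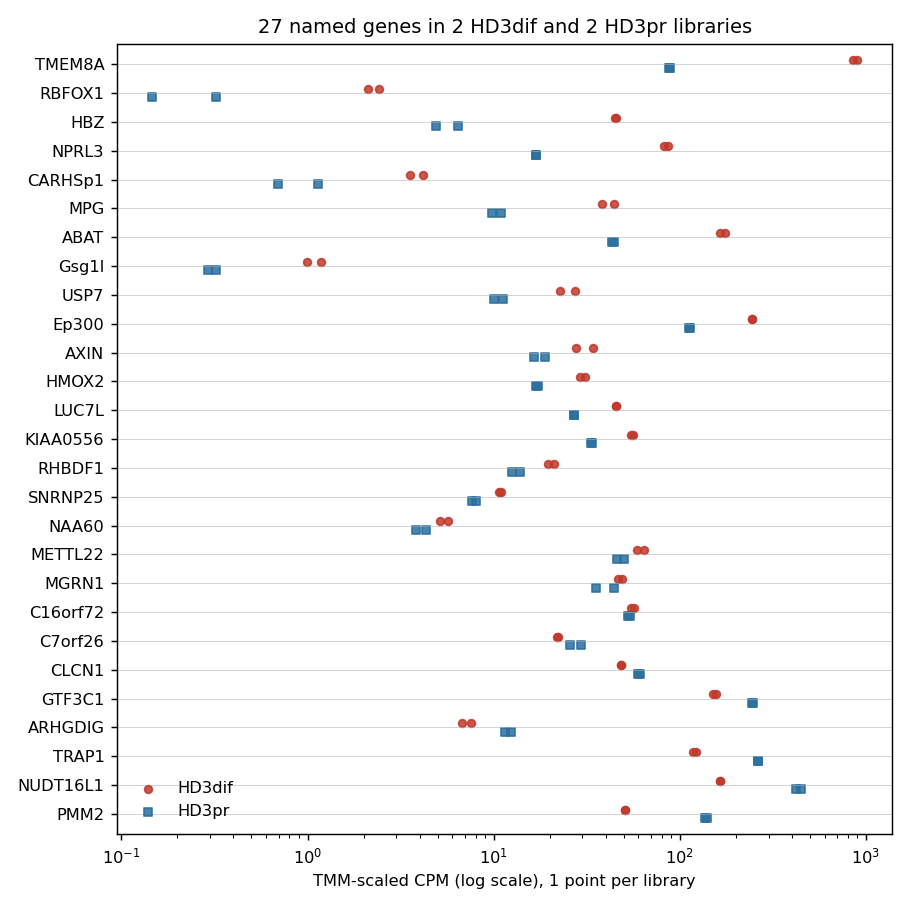
TMM-scaled CPM (x axis, log scale) of the 27 named genes (y axis, from the highest to the lowest log2 fold change of HD3dif over HD3pr), with 1 point for each of 2 HD3dif (red circles) and 2 HD3pr libraries (blue squares). In each gene both HD3dif libraries lie on 1 side of both HD3pr libraries, as in 89.2% of all tested genes. The log2 fold change runs from 3.32 in TMEM8A to −1.46 in PMM2.

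Larger changes than in these genes occurred among genes without a name. Their positions were not looked up, so some may lie in the same region. Of the genes with at least 10 CPM on average and no overlap between the groups, the largest increase was that of ENSGALG00000003594, with 313 CPM in each HD3dif library (6867 and 8147 reads) and 2.57 and 3.08 CPM in HD3pr (72 and 84 reads). Its log2 fold change was 6.79 ± 0.099. ENSGALG00000010101 followed with 76.1 and 71.4 CPM in HD3dif and 0.894 and 0.807 CPM in HD3pr (6.43). The largest decreases were those of ENSGALG00000007704, with 15.3 and 15.5 CPM in HD3dif and 364 and 366 CPM in HD3pr (−4.57), and of ENSGALG00000001933, with 3.46 and 2.26 CPM in HD3dif and 58.3 and 59.9 CPM in HD3pr (−4.39). These 4 genes kept their call under every setting in which they were tested.

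Genes with many reads were called lower more often than genes with few reads. Genes were divided by their mean CPM over the 4 HD3 libraries, which is not corrected for gene length. At 256 CPM or more, 136 of 795 genes were higher in HD3dif (17.1%) and 342 lower (43.0%), with a median log2 fold change of −0.46. Between 64 and 256 CPM, 13.1% of 2688 genes were higher and 33.6% lower, with a median of −0.30. Between 16 and 64 CPM, 13.3% of 3134 genes were higher and 20.1% lower (median −0.12). Between 4 and 16 CPM, 13.2% of 1933 genes were higher and 6.05% lower (median 0.25). Between 1 and 4 CPM, 9.85% of 1482 genes were higher and 0.675% lower, with a median of 1.00. Without 1 of the 4 HD3 libraries, this class had 3 to 17 genes called higher and 0 to 1 lower, and its median was 0.62 to 0.63 without an HD3dif library. The class of 4 to 16 CPM then had 60 to 96 higher and 16 to 48 lower, that of 16 to 64 CPM 209 to 243 and 236 to 379, and that of 64 to 256 CPM 234 to 286 and 590 to 747. The filter was rerun for each library left out. Without an HD3dif library the class of 1 to 4 CPM held 1117 and 1113 tested genes instead of 1482, so its median was of a smaller set. With all libraries, none of the 866 genes below 1 CPM was called in edgeR at these limits, although their median log2 fold change was 1.97.

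**Figure D3:**
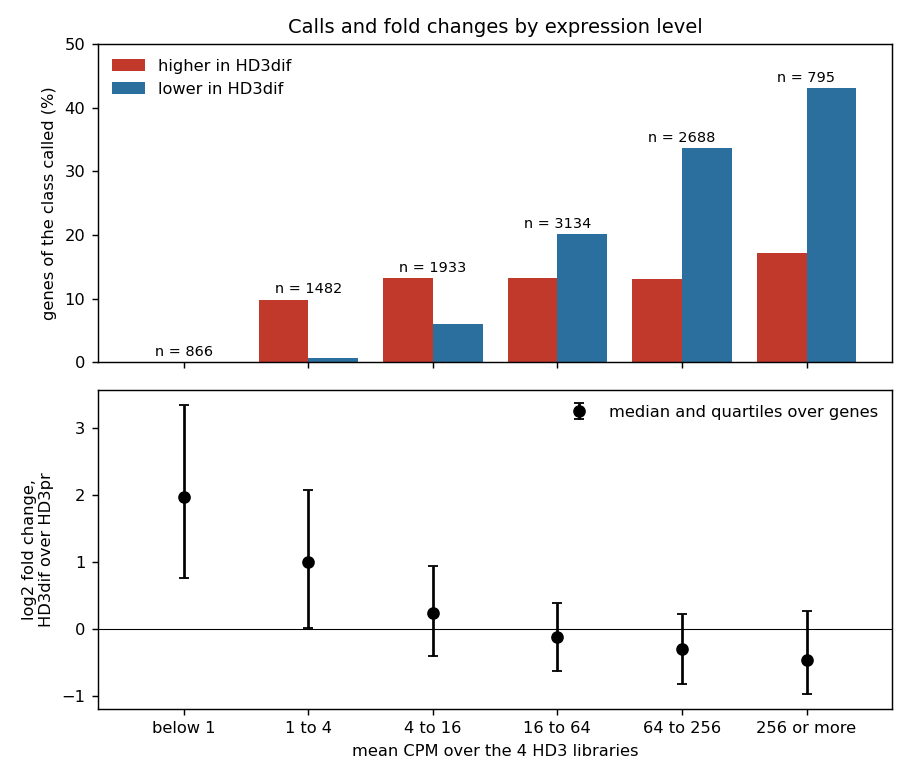
Upper panel: share of the tested genes called higher (red, left bar) and lower (blue, right bar) in HD3dif in 6 classes of mean CPM over the 4 HD3 libraries (x axis), with the number of genes in each class. Lower panel: median log2 fold change of HD3dif over HD3pr, bars from the lower to the upper quartile over genes. The median runs from 1.97 below 1 CPM to −0.46 at 256 CPM or more, and the share called lower reaches 43.0%.

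The power of the test differed between the classes. The median standard error of a log2 fold change was 0.656 below 1 CPM, 0.299 between 1 and 4 CPM and 0.045 at 256 CPM or more, and its part in the lack of called decreases among genes with few reads was not tested. The filter also admitted genes through the group in which they were high. With only the 9030 genes that passed 1 CPM in both DT40 libraries, a filter chosen after the data were seen that uses no HD3 library, the medians were 1.74 below 1 CPM, 0.59 between 1 and 4 CPM, 0.20 between 4 and 16 CPM, −0.14, −0.32 and −0.49 in the higher classes. In this set 945 genes were higher and 1899 lower, and the median of all genes was −0.08. Levels averaged over both groups also hold the change itself. Ordered by the level in HD3pr alone, 7.35% of the genes at 256 CPM or more were higher and 55.8% lower. Ordered by the level in HD3dif alone, 28.8% of the genes in that class were higher and 26.7% lower, so its excess of lower genes was not seen in this order. An excess remained between 64 and 256 CPM (16.4% higher, 27.9% lower) and between 16 and 64 CPM (11.8% and 24.5%). The shares were about even between 4 and 16 CPM (11.6% and 11.4%) and between 1 and 4 CPM (3.49% and 3.16%).

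The replicates of each group lay far closer together than the groups. The median absolute difference in log2(CPM + 0.5) between replicates was 0.0946 in HD3dif and 0.0699 in HD3pr. It was 0.614 to 0.622 between single libraries of the 2 groups. Differences over 2-fold were found for 45 genes between the HD3dif replicates (0.413% of those tested) and for 10 genes between the HD3pr replicates (0.0918%). Between single libraries of the groups, 29.7% to 29.9% of genes differed by over 2-fold. The Pearson correlation across genes was 0.996 for the HD3dif replicates and 0.998 for the HD3pr replicates, and 0.930 to 0.932 between libraries of the groups. Genes are not independent replicates, and these correlations are descriptions. The replicates still differed more than sampling of reads would give, with a chi-square per gene of 7.89 in HD3dif and 4.23 in HD3pr, where about 1.0 stands for sampling alone, and were kept as separate libraries.

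**Figure D4:**
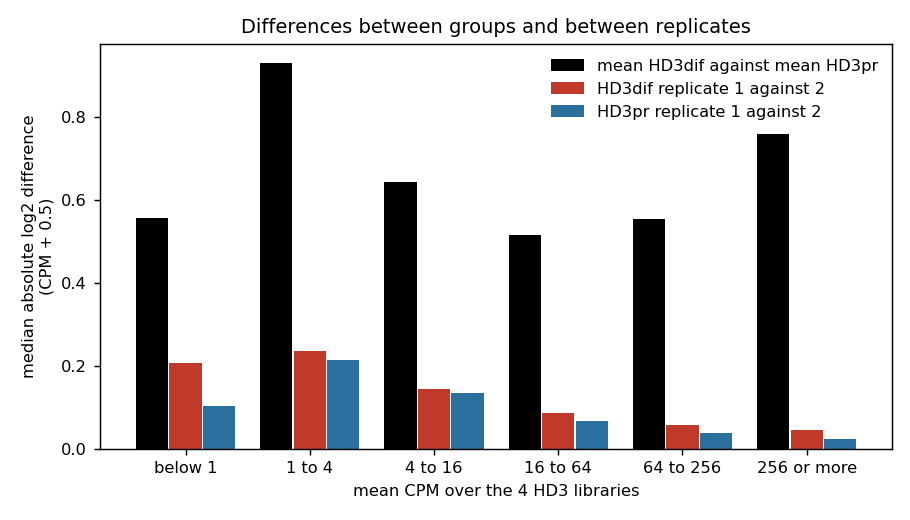
Median absolute difference in log2(CPM + 0.5) (y axis) by class of mean CPM (x axis), between the mean of HD3dif and the mean of HD3pr (black), between the 2 HD3dif replicates (red) and between the 2 HD3pr replicates (blue). The difference between the groups exceeds that between replicates in each class, from 0.557 against 0.206 and 0.102 below 1 CPM to 0.760 against 0.0453 and 0.0240 at 256 CPM or more.

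Most genes changed in the same direction in pairs of libraries that shared none. When 1 HD3dif and 1 HD3pr library gave a first set of fold changes and the other HD3dif and HD3pr library a second, the sets had a Pearson correlation of 0.960 across 10898 genes with replicate numbers kept together and of 0.966 with numbers crossed. The sign was the same in 91.8% and 92.7% of genes. Of 3254 genes changed over 2-fold in the first set, 85.6% were changed over 2-fold the same way in the second and 25 had the opposite sign. With crossed numbers the values were 87.1% of 3245 genes and 5 genes. Agreement depended on the level. The correlation with numbers kept together was 0.820 below 1 CPM, 0.907 between 1 and 4 CPM and 0.992 at 256 CPM or more.

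Many more genes entered the detected set than left it. A gene was taken as gained when it was at 1 CPM or more in both HD3dif libraries and below 1 CPM in both HD3pr libraries, and as lost in the opposite case. By this rule 718 genes were gained and 69 lost, while 9187 were at 1 CPM or more in all 4 libraries and 6474 below it in all 4. These sets were chosen by the values themselves and carry no test. Between the replicates of HD3dif, 192 genes crossed 1 CPM in one direction and 225 in the other, and between those of HD3pr, 116 and 163. Between single libraries of the groups, 944 to 1009 genes were at 1 CPM or more only in the HD3dif library and 128 to 153 only in the HD3pr library.

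Most gained genes had a low CPM in HD3dif too. Their median was 2.06 CPM in HD3dif and 0.396 CPM in HD3pr. Of the 718, 328 stayed below 2 CPM in HD3dif, 118 reached 4 CPM and 18 reached 10 CPM. The highest was ENSGALG00000010101, with a mean of 73.7 CPM in HD3dif. RBFOX1 was the only one of the 27 genes paired with a name in either set. Of the 718 gained genes, 160 were also called higher in the test, against 1305 of all 10898 tested genes (12%). The rule itself raises the share among the gained genes. The 69 lost genes had a median of 0.570 CPM in HD3dif and 1.83 CPM in HD3pr, and 1 had reached 10 CPM in HD3pr. Of these 69, 66 were tested and 8 were called lower, against 2003 of all 10898 tested genes (18.4%). Summed over the 718 gained genes, the level was 2202 CPM in HD3dif and 285 CPM in HD3pr.

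A stricter rule gave far smaller sets with the same direction. At least 10 reads in each HD3dif library and no read in either HD3pr library were found for 27 genes, with 10 to 93 reads per HD3dif library. No gene had the opposite pattern. Without a minimum, 808 genes had reads in both HD3dif libraries and none in HD3pr, and 21 genes had reads in both HD3pr libraries and none in HD3dif, although the HD3pr libraries had more gene reads. At a common depth of 20100063 gene reads, 14094 and 14096 genes were expected with at least 1 read in HD3dif, and 12410 and 12383 in HD3pr. The larger share of reads outside gene features in HD3dif, 46.3% against 33.7% in HD3pr, moved with this count, and its part in it was not tested.

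The called genes held much of the read output. The 1305 genes called higher took 22.3% and 22.0% of gene reads in HD3dif, against 7.81% and 7.85% in HD3pr. The 2003 genes called lower took 25.2% and 25.0% in HD3dif, against 47.0% and 47.2% in HD3pr. These shares follow from the calls and are given as a description. Of the 1305 genes called higher, 92 made up 50% of their summed CPM gain. Of the 2003 called lower, a larger set, 200 made up 50% of their summed loss. The summed gain was 118444 CPM and the summed loss 284150 CPM. Both sums are of TMM-scaled CPM, with factors of 1.09 and 1.08 in HD3dif and 0.915 in each HD3pr library. Relative to plain gene totals, these factors lower the levels in HD3dif and raise those in HD3pr. The excess of the summed loss is therefore partly set by the scaling. In the plain shares of gene reads given above, the loss was also larger than the gain, but by less. The top gene held 3.19% of the gain and 3.13% of the loss, and the top 100 genes 51.9% and 37.0%. The gene with most reads was the same in all 4 libraries. It took 4.67% and 4.75% of gene reads in HD3dif and 2.95% and 2.99% in HD3pr. These shares are of plain gene totals, while the calls used TMM. With TMM its log2 fold change was 0.42, short of the limit on the fold, so the gene was not called. Below it the order changed, and libraries of the 2 groups shared 52 of their top 100 genes, while replicates shared 98 in HD3dif and 99 in HD3pr.

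The balance of higher and lower genes depended on how libraries were scaled. TMM factors were 1.09 and 1.08 in HD3dif and 0.915 in each HD3pr library. With the size factors of DESeq2 used in edgeR, 1466 genes were higher in HD3dif and 1885 lower. With upper quartile factors, 1735 were higher and 1382 lower. With the plain total of gene reads, 1964 were higher and 1375 lower, and with that total without the 100 genes with most reads, 1938 were higher and 1321 lower. With all reads of the file, those not assigned to a gene included, 1621 were higher and 2816 lower. The share of called genes that were higher was thus 39.4% with TMM and between 36.5% and 59.5% with the other scalings. Relative to TMM the scalings shifted every log2 fold change by between −0.16 (all reads) and 0.27 (without the top 100 genes). The median of all genes lay between −0.12 and 0.30. Each scaling was refitted, so the estimate of spread changed too. With all reads the SE of TMEM8A was 0.094, against 0.048 with TMM. Genes called higher between 1 and 4 CPM then numbered 367, against 146 with TMM, although the folds were lower. The parts of shift, of spread and of the weight that each fit gave to the shared spread were not tested.

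**Figure D5:**
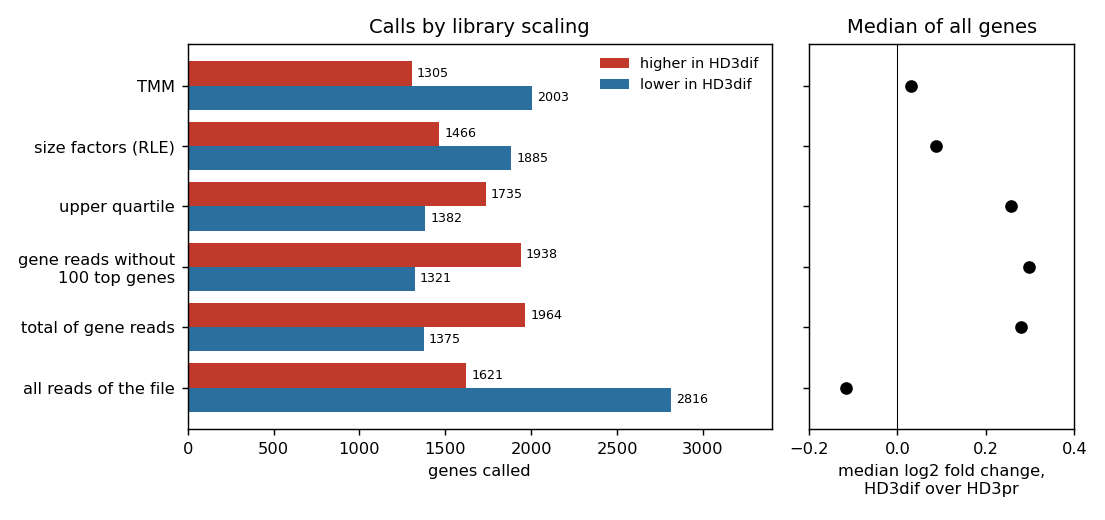
Left panel: number of genes (x axis) called higher (red, upper bar) and lower (blue, lower bar) in HD3dif under 6 ways of scaling the libraries (y axis). Right panel: median log2 fold change of HD3dif over HD3pr over the 10898 tested genes. Lower genes exceed higher genes under TMM, size factors and all reads, and higher genes exceed lower genes under the other scalings.

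Part of the pattern held under all 6 scalings. No gene was called higher under one and lower under another. Of 5065 genes called under at least 1 scaling, 1177 were called higher and 1316 lower under all 6. Increases outnumbered decreases beyond 16-fold under each, with 101 to 137 genes higher and 5 to 9 lower. In the classes of mean CPM over both groups, the median log2 fold change was positive below 16 CPM and negative from 64 CPM upward under each scaling. Between 16 and 64 CPM its sign changed, with −0.12 under TMM and 0.15 under the total without the top 100 genes. Classes by the level in HD3dif alone were formed with TMM only, where the median at 256 CPM or more was −0.03. The scalings do not show which centre is right, since no RNA of known amount was added to the libraries according to the sources used here.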

How the data were processed

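RNA-seq gene counts of 2 HD3dif, 2 HD3pr and 2 DT40 libraries were used. Per the labels and the study's methods, the authors prepared stranded libraries from rRNA-depleted RNA, aligned reads with TopHat2 2.0.12 and Bowtie2 2.2.1 to galGal4 with Ensembl release 82 genes, and deposited raw read counts per gene made with HTSeq, without normalization. The strand setting of the counting is not given in the sources used here, so overlapping and antisense genes, and near-identical copies, are uncertain. Rows for reads not assigned to a gene (on no feature, ambiguous or not uniquely aligned) were left out of totals and tests. They held 64.2% and 67.0% of all reads in HD3dif and 55.6% and 53.8% in HD3pr. Coverage tracks and contact maps were not used here.

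Genes with CPM (counts per 1e+06 gene reads) above 1 in at least 2 of 6 libraries were fitted with edgeR 4.0.16 (glmQLFit, TMM) in R 4.3.3. The p-values were adjusted over all 10898 genes. Filters on CPM used plain gene totals. CPM values of genes, classes and gained or lost genes were scaled by TMM unless another scaling is named. The SE is the log2 fold change divided by the square root of F. Differences between single libraries used log2(CPM + 0.5). Alternatives were DESeq2 1.42.0, 5 scalings, 3 filters, the legacy edgeR fit, a fit of the 4 HD3 libraries, a replicate block, other limits and each library left out. Where 1 library remained in a group it was assumed to vary like the others. Gene reads per library numbered 20100063 to 30576844, so precision is limited by depth for genes of few reads and by 2 replicates for the rest. With 2 against 2 libraries no exact permutation test of 1 gene can pass 0.05, and p-values rest on the spread shared across genes. The fit was tested on simulated data. Simulated rises and falls were equal in number, so the balance of directions under TMM was not tested by them.

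Named were the genes of the study's region table that could be paired by count (tolerance 0.5 reads plus 5e-05 of the count, at least 20 reads in 1 library). Also named were the 2 largest rises and falls among called identifiers with at least 10 CPM and no overlap. The genes and lists were chosen with earlier results of these data known. Lists of erythroid, heme and cell type marker genes could not be matched to identifiers and gave no result.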

Additional observations from a re-analysis of the deposited data

How the results depend on the processing

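No gene was called in opposite directions by the main test and any alternative tried. For the scalings this followed from the limits on a call, as given above. Among alternative values of the named genes, 547 kept direction and side of the limit, 39 lost a call, 27 gained one and 1 turned round. Among counts in level classes and of named genes, 179 stayed within 1.5 times, 57 fell by more and 44 rose by more. The value that turned round was C16orf72, not called, at −0.085 with all reads as the scale (adjusted p = 0.424 in edgeR). The median log2 fold change was 0.087 with DESeq2 size factors and with DESeq2 itself, 0.28 with gene totals, 0.26 with upper quartile factors, 0.30 without the 100 top genes, −0.12 with all reads, 0.28 with no filter, 0.062 with filterByExpr, 0.013 with a filter on the HD3 libraries and −0.079 with the filter on DT40. It was 0.014 to 0.030 with 1 library left out.

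The count of genes higher in HD3dif was 1305. It was 1964 with gene totals, 646 with no filter, 4353 at an adjusted p of 0.05 and 2193 at that p with a log2 fold change beyond 1. The count of lower genes was 2003. It was 1321 without the 100 top genes and 4291 at an adjusted p of 0.05, while no filter gave 1411. With no filter 15054 genes were tested. With 1 library left out, 664 to 1697 genes were higher and 1120 to 2161 lower. The highest counts came without replicate 1 of DT40. The cause of these shifts was not tested.

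With a replicate block, 747 genes were higher and 1470 lower. Deviations of HD3dif and HD3pr from their group means correlated at −0.03 across genes. With 2 libraries per group this cannot settle whether replicate numbers pair the samples, so the block only shows how the count moves. DESeq2 called 1754 higher and 2062 lower. Genes gained numbered 718 and genes lost 69. The lost genes were 127 at a limit of 2 CPM and 173 with all reads as the scale. With 0 reads against at least 10, 27 were gained and 0 lost. The genes gained were 623 at a limit of 2 CPM and 503 with all reads as the scale. The other alternatives gave 754 to 941 gained and 50 to 99 lost. The median standard error below 1 CPM was 0.656, against 0.045 at 256 CPM or more.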
